A study of Rattus norvegicus with 2 samples.

Results

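The NRF2-type detoxification and redox enzymes are 9 genes of rat liver: the transcription factor gene Nfe2l2, which encodes NRF2, and 8 genes for enzymes that NRF2 is known to drive or that act beside its targets (Nqo1, Txnrd1, Srxn1, Akr7a3, Akr1b8, Ephx1, Tkt and Prdx1). The list was drawn up with earlier results of these data known. Its genes were taken by name from the array annotation, and all 9 were present among 33719 gene names, with 12 of 41012 distinct gene probes. Liver RNA came from Wistar rats (spelled Wister in the labels) that were 7 weeks old and ate a choline-deficient or a control diet for 10 days, with no other treatment or allele named. Each of the 2 arrays carried both diets in different dyes, and the dyes were swapped: Cy5 marked the choline-deficient diet on array 1 and the control diet on array 2. The labels name 4 choline-deficient rats without saying whether RNA was pooled or whether the arrays held the same extracts. Each limma p-value, from a fit over both arrays, therefore rests on how far the 2 arrays differ, largely pooled over genes. That difference may be technical. The deposited p-values come from the error model within each array.

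In resting cells the NRF2 protein is held by KEAP1 and passed to a CUL3 ubiquitin ligase for degradation. Electrophiles and oxidants modify KEAP1, and NRF2 then accumulates, pairs with small MAF proteins and binds antioxidant response elements near genes for quinone reduction, aldehyde and epoxide removal, the thioredoxin system and NADPH supply. Because this switch works mainly through protein stability, the level of Nfe2l2 mRNA is not a measure of NRF2 activity.

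Probes are printed here because each ratio is the reading of 1 oligonucleotide of 60 bases, and the 12 probes did not all give the same picture for the same gene. The probes below, 5′ to 3′ as the array files give them, read the enzyme genes on which the results turn. Those of Akr7a3 and the first Txnrd1 probe are shown for their first 30 bases only.
Akr7a3 (first 30 bases): tgtcccaactatttccgctaagatacatct
Ephx1: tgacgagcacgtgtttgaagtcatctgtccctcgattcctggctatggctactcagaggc
Akr1b8: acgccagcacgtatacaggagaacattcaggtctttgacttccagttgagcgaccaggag
Nqo1: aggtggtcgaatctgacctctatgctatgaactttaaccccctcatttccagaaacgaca
Prdx1: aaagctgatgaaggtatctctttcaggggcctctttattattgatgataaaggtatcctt
Txnrd1, brightest probe (first 30 bases): tatgagagccaaaccagtttatcctgagaa
Txnrd1, upstream probe: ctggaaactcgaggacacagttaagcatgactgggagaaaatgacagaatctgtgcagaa
In a search of all gene probes of the array for a shared run of 20 bases on either strand, only the Prdx1 probe shared any, with 2 probes that carry no gene name in the files. Matches to transcripts that the array does not probe were not searched.

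Of the 9 genes, 2 rose in choline-deficient liver, Akr7a3 and Ephx1, none fell, and 7 did not pass the test (limma, Benjamini-Hochberg adjusted p under 0.05 over 18198 genes). Over all genes tested, 4.37% were called higher and 4.25% lower, or 8.62% in either direction. Because the 9 genes were chosen with earlier results of these data known, their counts beside these shares are no test of the set. The median log2 ratio of choline-deficient over control was 0.06 over the 9 genes and 0.00 over all genes tested. On both arrays, 4 of the 9 genes were above 0 (Akr7a3, Ephx1, Akr1b8 and Txnrd1), as were 29.4% of all genes, and 1 was below 0 (Srxn1), as were 27.0% of all genes. The other 4 had opposite signs on the arrays. The 2 enzymes that rose act on reactive aldehydes and epoxides. From the authors' deposited log ratios limma called 0 genes of the whole table (2120 at an unadjusted p under 0.05). The same ratios were also fitted with a variance trend on intensity, a setting chosen after the data were seen. That fit called both Akr7a3 (limma adjusted p = 2.71e-43) and Ephx1 (limma adjusted p = 2.11e-11). It took the variance from the trend alone, so a gene's own spread over the 2 arrays did not enter these p-values. With median centring instead of loess limma again called 0 genes (19 at an unadjusted p under 0.05). The mean ratios of Akr7a3 and Ephx1 were no smaller in these settings, although with median centring Ephx1 (-0.14), Akr1b8 (-0.05) and Txnrd1 (-0.42) were below 0 on array 2. With median centring the median of all genes tested was itself -0.41 on array 2 and 0.65 on array 1.

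**Figure D1:**
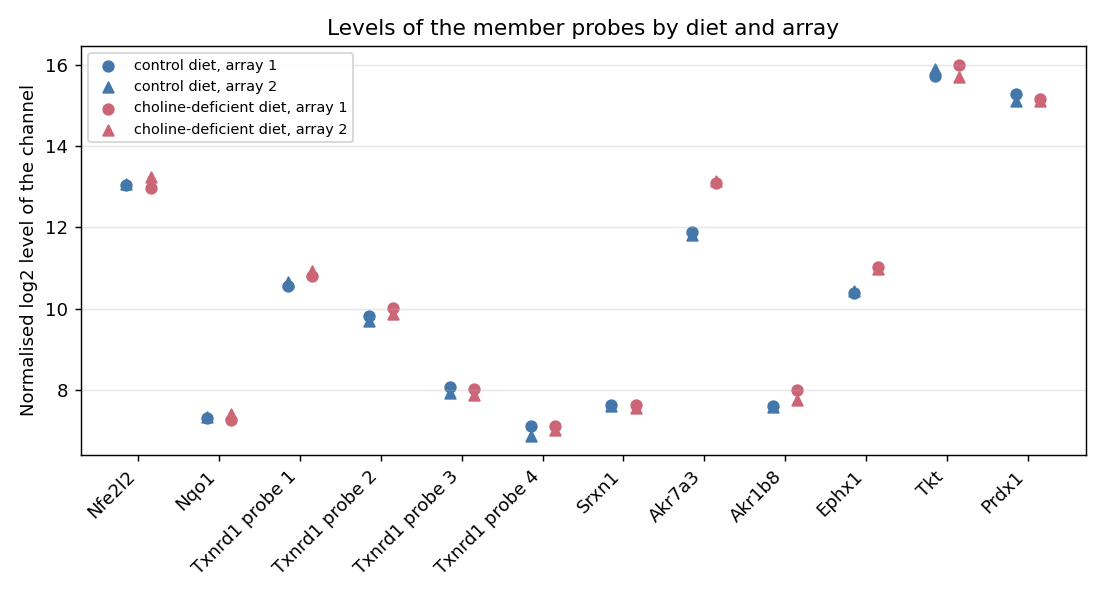
Normalised log2 level (vertical axis) of the 12 probes of the 9 genes (horizontal axis) in each of the 4 channels, with control diet in blue, choline-deficient diet in red, array 1 as circles and array 2 as triangles; Txnrd1 probes are ordered from brightest to dimmest. Both red points lie above both blue points for Akr7a3, Ephx1, Akr1b8 and the 2 brightest Txnrd1 probes, and levels of different probes are not comparable with each other.

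Akr7a3 encodes aflatoxin aldehyde reductase, an aldo-keto reductase that turns reactive dialdehydes into alcohols. Its normalised log2 level was 11.89 and 11.82 in control liver (arrays 1 and 2) and 13.08 and 13.15 in choline-deficient liver. Both choline-deficient values were higher than both control values by more than 1 log2 unit. The log2 ratio was 1.19 on array 1 and 1.33 on array 2, or 1.26 ± 0.09 (SD, n = 2 arrays), a 2.40-fold rise (limma adjusted p = 5.69e-16). It ranked 19 from the top among the 18198 genes. The authors' deposited log ratio, converted to log2, gave 1.29 and 1.35, with deposited p-values of 4.17e-08 and 1.49e-08 from the error model within each array. The probe lies on chromosome 5 from 158147285 to 158147343 on the plus strand of rn4, and it was the only probe of that name.

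Ephx1 encodes microsomal epoxide hydrolase, which opens epoxides to diols. Its level was 10.39 and 10.43 in control liver and 11.01 and 10.98 in choline-deficient liver. The diets did not overlap, and the values within each diet differed by far less than those between diets. The log2 ratio was 0.62 and 0.55, or 0.59 ± 0.05 (SD, n = 2 arrays), a 1.5-fold rise (limma adjusted p = 1.25e-05). In the authors' deposited values the log2 ratios were 0.71 and 0.57, with p-values of 0.000973 and 0.00668. Akr7a3 and Ephx1 were the 2 of 12 probes with a deposited p under 0.01 on both arrays in the same direction, both higher, as were 0.819% of all 41012 probes. The Ephx1 probe lies on chromosome 13 from 96729072 to 96729131 on the minus strand of rn4.

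Akr1b8 encodes an aldose reductase-like enzyme that reduces lipid aldehydes. Its level was 7.59 and 7.58 in control liver and 8.0 and 7.75 in choline-deficient liver, so that the diets did not overlap. Over all genes tested, 23.2% had both choline-deficient levels above both control levels, against 4 of these 9 genes, and 20.3% had both below, against 0 of these 9. The Akr1b8 log2 ratio of 0.29 ± 0.17 (0.41 and 0.17) did not pass (limma adjusted p = 0.0670), with a 95% interval from 0.08 to 0.49 before adjustment. The probe is dim, with raw signals of 137 and 219 in control and 288 and 179 in choline-deficient liver against backgrounds of 42 to 48. The offset added before taking logs draws such a ratio towards 0. The authors' deposited values, which carry no offset, gave 0.87 and 0.27, with p-values of 0.000378 and 0.274. Their mean of 0.57 passed only with a variance trend on intensity (limma adjusted p = 0.0127), an alternative chosen after the data were seen. That fit took the variance from the trend alone. The probe maps across 61724364 to 61725032 of chromosome 4 on the plus strand of rn4, a span longer than the probe itself.

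**Figure D2:**
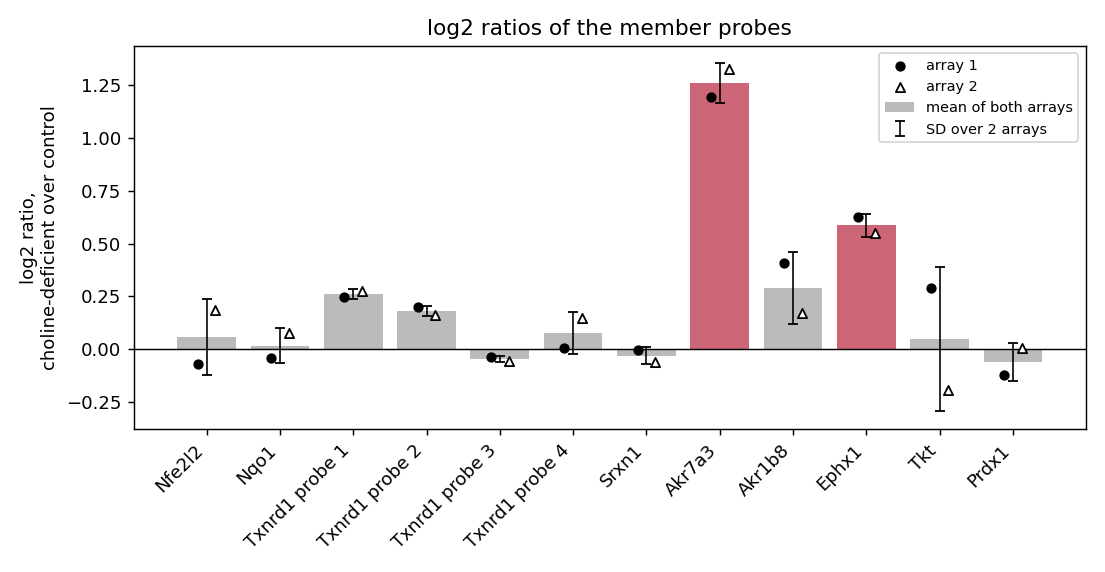
The log2 ratio of choline-deficient over control (vertical axis) for each of the 12 probes, with bars at the mean, error bars of 1 SD over 2 arrays, circles for array 1 and triangles for array 2. Red bars mark the genes past limma's adjusted p of 0.05, Akr7a3 at 1.26 and Ephx1 at 0.59; the symbols of Nfe2l2, Nqo1, Tkt and Prdx1 fall on both sides of 0.

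Nfe2l2 itself was at a level of 13.04 and 13.06 in control and 12.97 and 13.25 in choline-deficient liver. The diets overlapped, and the arrays had opposite signs. Its log2 ratio was 0.06 ± 0.18 (limma adjusted p = 0.912), with a 95% interval from -0.15 to 0.26. The probe lies on chromosome 3 from 58366802 to 58366861 on the minus strand of rn4.

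Nqo1, the quinone reductase often used as a marker of NRF2 activity, was at 7.30 and 7.34 in control and 7.26 and 7.41 in choline-deficient liver. These values overlapped, and the ratio of 0.02 ± 0.08 did not pass (limma adjusted p = 0.986; 95% interval from -0.19 to 0.22). The probe was well above background in all 4 channels but dim, with raw signals from 123 to 180, so the offset would understate a change. It lies on chromosome 19 from 37256979 to 37257038 on the minus strand of rn4.

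Txnrd1, the cytosolic thioredoxin reductase that recharges thioredoxin with electrons from NADPH, was read by 4 probes. The brightest was at 10.55 and 10.64 in control and 10.80 and 10.92 in choline-deficient liver, with no overlap. Its log2 ratio was 0.26 ± 0.02 (0.24 and 0.28), which did not pass (limma adjusted p = 0.109, with a 95% interval from 0.06 to 0.46 before adjustment). It passed with a variance trend on intensity (limma adjusted p = 0.0420), a fit that took the variance from the trend alone. The second probe, nearer the end of the gene, read 0.18 ± 0.03. The upstream probe read -0.05 ± 0.02, lower than the brightest probe by 0.28 on array 1 and 0.34 on array 2, and it maps 16.4 kb away. The mean of the 3 probes was 0.13 (limma adjusted p = 0.579). The fourth probe, made from an expressed sequence tag, maps to the plus strand, whereas the other Txnrd1 probes map to the minus strand. It was well above background in 1 of 4 channels and was left out. The brightest and upstream probes map to 23056700 to 23056759 and 23073062 to 23074940 of chromosome 7 in rn4.

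Srxn1, the sulfiredoxin that repairs overoxidised peroxiredoxins, was at 7.64 and 7.61 in control and 7.64 and 7.55 in choline-deficient liver, which overlapped (-0.03 ± 0.04, limma adjusted p = 0.962). Prdx1, a peroxiredoxin that reduces hydrogen peroxide, was at 15.27 and 15.10 in control and 15.14 and 15.10 in choline-deficient liver (-0.06 ± 0.09, limma adjusted p = 0.897; 95% interval from -0.26 to 0.14). With median centring the means of Srxn1 and Prdx1 turned positive, to 0.03 and 0.11, and neither passed. The median of all genes tested was 0.08 in that setting. Tkt, the transketolase of the non-oxidative pentose phosphate pathway, was at 15.71 and 15.90 in control liver. Choline-deficient liver was higher on array 1 (log2 ratio 0.29) and lower on array 2 (-0.20), so the diets overlapped (0.05 ± 0.34, limma adjusted p = 0.938). The SD of Tkt was the largest of the 9 genes, above the median SD of 0.11 among the brightest 10% of genes, to which it belongs. The Srxn1, Prdx1 and Tkt probes lie on chromosomes 3, 5 and 16 of rn4.

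The regulators and other genes of the pathway were taken from lists drawn up with earlier results of these data known, and are described by counts. Of 11 NRF2 regulators tested, 0 were called by limma, against 8.62% of all genes tested. The deposited ratios with a variance trend on intensity called 1 of the 11 higher. The median of the regulators was 0.03, with a range from -0.12 to 0.20 on the log2 scale. With the deposited ratios it was -0.02, as was the median of all genes tested. KEAP1's gene Keap1 was at 0.08 ± 0.03, Cul3 at 0.03 ± 0.01 and the kinase gene Gsk3b at -0.05 ± 0.00. The small MAF gene Mafk was at 0.20 ± 0.01, although its control signal cleared background on 1 array only. Sqstm1, whose product p62 can draw KEAP1 into autophagy, was at -0.12 ± 0.03 at its brightest probe, and its 4 probes ran from -0.12 to 0.19.

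Of 36 other NRF2 target genes tested, 3 rose and 1 fell, with a median of 0.03. These are 8.33% and 2.78% of the list, against 4.37% called higher and 4.25% lower over all genes tested. The glutathione S-transferases Gstm3 (1.36 ± 0.30) and Gstm1 (0.58 ± 0.10) and the glucuronosyltransferase Ugt1a6 (0.30 ± 0.11, limma adjusted p = 0.0484) rose, and the aldehyde oxidase Aox1 fell (-0.54 ± 0.22). Probes for Gstm and Ugt1a genes can also bind their paralogs. Among the targets most used to read NRF2 activity, the glutamate-cysteine ligase genes Gclc (0.03 ± 0.17) and Gclm (-0.22 ± 0.27) did not pass. Neither did the glutathione reductase Gsr (0.03 ± 0.18) or the heme oxygenase Hmox1 (0.08 ± 0.17).

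Among further genes of the pentose phosphate pathway and NADPH supply, the transaldolase Taldo1 (-0.07 ± 0.07), the malic enzyme Me1 (0.02 ± 0.05), Idh1 (0.12 ± 0.01) and H6pd (-0.11 ± 0.00) did not pass. Of 15 further thioredoxin and peroxiredoxin genes, 0 were called, against 8.62% of all genes tested. A variance trend on intensity called 1 of the 15 lower, both on the ratios of the report and on the deposited ratios. The thioredoxin gene Txn1 was at 0.16 ± 0.34, Prdx5 at -0.28 ± 0.10, the thioredoxin inhibitor Txnip at -0.27 ± 0.35, Prdx4 at -0.17 ± 0.20 and the glutaredoxin Glrx at -0.17 ± 0.05.

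Of 14 further aldo-keto reductase and epoxide hydrolase genes, 0 rose and 2 fell, or 14.3% against the 4.25% called lower over all genes, with a median of -0.07 that turned to 0.06 with median centring, where the median of all genes was 0.08. Akr7a2, the closest relative of Akr7a3 in the list, was at -0.09 ± 0.12 (limma adjusted p = 0.822). Akr1b7 and Akr1b10, relatives of Akr1b8, were at 0.04 ± 0.16 and 0.04 ± 0.06. The genes that fell were Akr1c1 (-0.49 ± 0.17) and Ephx2, the soluble epoxide hydrolase that acts on fatty acid epoxides (-0.31 ± 0.00, limma adjusted p = 0.0371). Akr1c14 (-0.27 ± 0.32) and Akr1c3 (-0.14 ± 0.15) did not pass. Differences between genes of a family were not tested.

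Ephx1, Akr7a3 and Nqo1 can also be induced through the xenobiotic receptors CAR, PXR and AhR. Of 19 genes in the list for these receptors and their targets, 2 rose and 6 fell, with a median of -0.12. These are 10.5% and 31.6% of the list, against 4.37% called higher and 4.25% lower over all genes tested. Those that rose were Ugt2b1 (2.99 ± 0.21) and Aldh1a7 (1.85 ± 0.12). The CAR gene Nr1i3 fell (-0.47 ± 0.03), as did Cyp1a2, a target of AhR (-0.87 ± 0.21), Cyp3a2 (-0.79 ± 0.42), Cyp3a18 (-0.72 ± 0.18), Cyp2c7 (-0.47 ± 0.03) and Cyp2b15 (-0.34 ± 0.02). Probes for Cyp3a, Cyp2c and Cyp2b genes can bind paralogs. The 14 called genes named here from the related lists kept the sign of their mean in all 8 settings. Not every setting can change a mean, since an intensity trend alters the variance only. Ephx2 and Ugt1a6 passed the test in 4 of the 8 settings, Cyp2b15 in 5 and the others in 6.

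**Figure D3:**
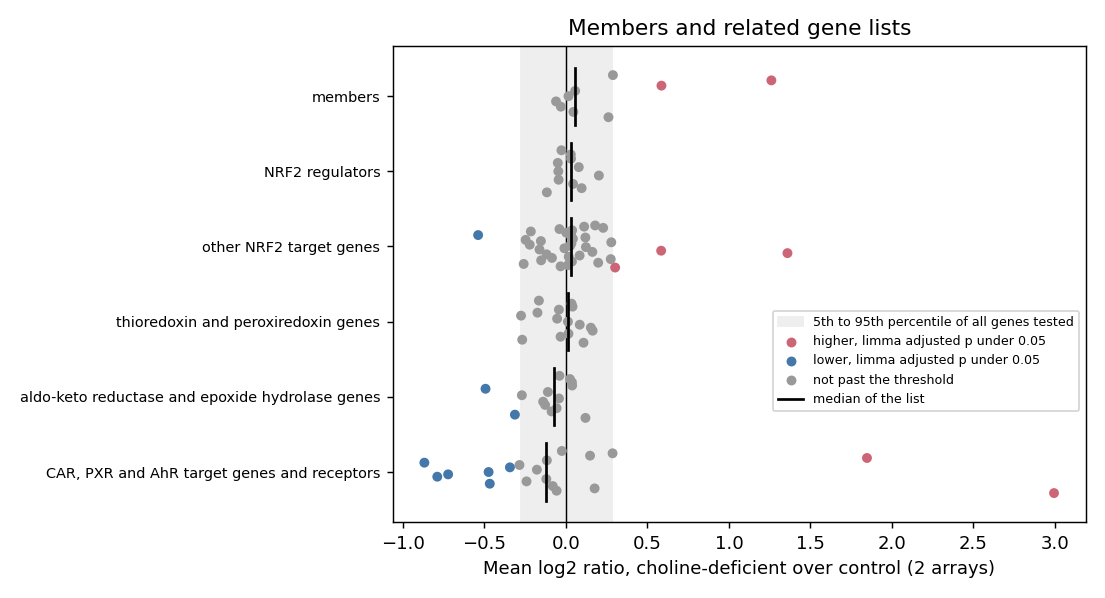
Mean log2 ratio of choline-deficient over control (horizontal axis) for each tested gene of the 9 members and of 5 related lists without the members (vertical axis); red is higher and blue lower at limma's adjusted p under 0.05, grey did not pass, black lines are medians and the shaded band holds the 5th to 95th percentile of all genes tested. The regulators and the thioredoxin list hold no coloured point, and medians lie between -0.12 and 0.06.

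Antioxidant response elements contain the core TGACNNNGC, which was searched on both strands in the RefSeq promoters of assembly GRCr8, from 250 bases before to 50 after each gene's start. All 9 genes matched by accession. The core was found in 4 of them (Nfe2l2, Txnrd1, Ephx1 and Prdx1), and in 12.1% of all 33469 promoters. Ephx1 and Prdx1 carry the same 9 letters, printed here because Ephx1 rose and Prdx1 did not pass the test; the match is in capitals and reads the core on the opposite strand.
Ephx1, chr13:95263146-95263194, minus strand: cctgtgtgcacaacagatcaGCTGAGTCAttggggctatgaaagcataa
Prdx1, chr5:135383751-135383799, plus strand: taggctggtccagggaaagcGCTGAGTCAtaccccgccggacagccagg
The match begins 57 bases before the start of Ephx1 and 135 bases before that of Prdx1. Both overlap the AP-1 motif TGACTCA, which was found in 3 of the 9 promoters (Ephx1, Prdx1 and Srxn1) and in 4.63% of all promoters. Akr7a3, the gene with the largest rise, held no core match in this window. A match is a run of letters, not a measured binding site.

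The tissue label was checked against 7 hepatocyte markers, which were all well above background in all 4 channels. Of these 1 rose (Apoa1) and 2 fell (Alb at -0.31 and Fgb at -0.67). Their summed level (log2 of the sum) went from 19.18 in control to 19.28 in choline-deficient liver on array 1, and from 19.51 to 18.95 on array 2, so it moved in opposite directions on the arrays. Of 6 stellate cell and myofibroblast markers, 4 rose, with summed levels from 13.46 to 13.49 in control and from 13.69 to 13.70 in choline-deficient liver. Col1a1, among those that rose, was read at its brightest probe, and its 3 kept probes ran from -0.06 to 0.53. For comparison with the marker counts, 4.37% of all genes tested were called higher and 4.25% lower. Among 8 markers of Kupffer cells and macrophages, 2 were higher (Marco at 0.91 and Lyz2 at 0.69) and 1 was lower (Cd14 at -0.41). Their summed levels ran from 14.84 to 14.94 in control and from 14.68 to 14.81 in choline-deficient liver. These sums mainly read the brightest marker, Clec4f, which did not pass (14.46 and 14.32 in control, 14.00 and 14.19 in choline-deficient liver). Of 4 cholangiocyte and progenitor markers 1 rose (Spp1), with sums from 10.09 to 10.20 and from 10.80 to 10.99, and Krt7 was not well above background. Spp1 alone went from 8.57 and 8.47 in control to 10.19 and 9.88 in choline-deficient liver. Epcam (log2 ratio 0.27), Sox9 (0.04) and Krt19 (-0.02) did not pass, so the rise of this sum mainly reads Spp1. Of 4 endothelial markers 1 fell, with sums from 14.76 to 14.96 and from 14.44 to 14.46, and Pecam1 was not well above background. Of 3 neutrophil markers 1 rose, with sums from 8.75 to 8.83 and from 8.88 to 9.02, and Elane was not well above background. Of 3 erythroid markers 1 fell, with sums from 14.81 to 14.87 and from 14.29 to 14.52. Of 3 lymphocyte markers 1 fell, with sums from 10.13 to 10.22 and from 9.98 to 10.02, and Cd3e, Cd79b and Ms4a1 were not well above background. Their part in the rise of Akr7a3 and Ephx1 was not tested. In whole liver, a change in the number of cells of a type and a change in RNA per cell cannot be told apart.

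**Figure D4:**
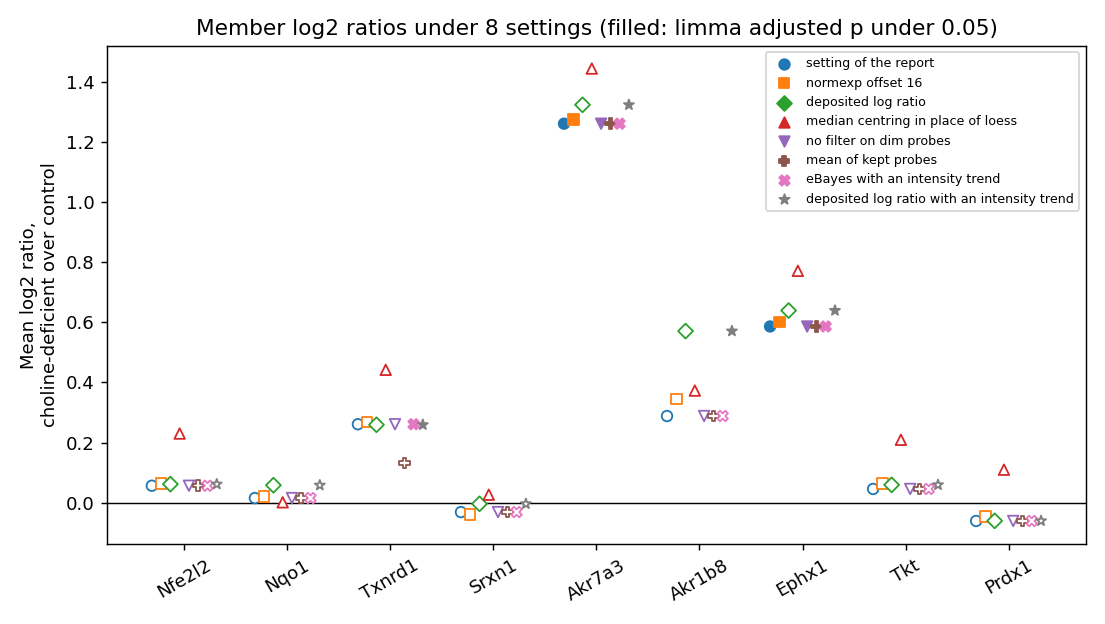
Mean log2 ratio (vertical axis) of each of the 9 genes (horizontal axis) under the setting of the report and 7 alternatives, each with its own symbol; a filled symbol passed limma's adjusted p of 0.05. Akr7a3 lies between 1.26 and 1.44 and Ephx1 between 0.59 and 0.77 in all 8 settings, and both are filled in 6 of them. Each of these genes was read by 1 probe. The settings without the filter, with the mean of kept probes and with an intensity trend therefore repeat the ratio of the report. Both deposited settings also share their ratios.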

How the data were processed

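Liver RNA was read on 2 two-colour arrays. Per the file headers, the authors extracted images with Agilent Feature Extraction 9.5.3.1, and probe positions are in rn4. The deposited files hold raw intensity and background per dye, processed intensity, the authors' log10 ratio of Cy5 over Cy3 after background subtraction, detrending and lowess, and a deposited p-value from the error model of each array.

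Mean signals and median local backgrounds went through limma 3.58.1 (R 4.3.3): normexp correction, offset 50, then within-array loess that gave control spots a weight of 0. The offset understates ratios of dim probes. Outlier spots (174 and 151) were left out. A probe was kept if either diet exceeded background clearly in both hybridisations (22383 probes), and each of 18198 genes was represented by its brightest. Log2 ratios were given the sign of choline deficiency relative to control and tested against 0 with lmFit and eBayes, two-sided, with 1 residual and 63.5 prior degrees of freedom, so the spread is largely pooled over genes; intervals are from that fit. Levels are per channel after Aquantile scaling. The median SD among 10 spots of a probe was 0.0612 and 0.0518. No spot was saturated. The number of arrays limits the precision. The procedure was tested on simulated data whose errors were drawn independently for each gene and array. Such data cannot show an error shared by both arrays. The rule for named genes takes all 9 members and the called genes of each list. It adds up to 4 of the largest ratios per list with equal sign on both arrays, and Keap1, Gclc, Gclm, Hmox1, Gsr and Txn1. Cul3, Me1, Akr7a2, Akr1b7, Akr1b10, Spp1, Apoa1, Col1a1, Alb and Fgb were added after their values were seen. So were the markers Epcam, Sox9, Krt19, Marco, Lyz2, Cd14 and Clec4f. The members and lists were chosen with earlier results of these data known. A listed gene is not reported here, and its list is given without counts.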

Additional observations from a re-analysis of the deposited data

How the results depend on the processing

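Akr7a3 and Ephx1 kept the direction of their mean in all 8 settings, and 2 settings ended their calls. Each was read by 1 probe, so the filter, the mean of kept probes and the intensity trend could not change its ratio. Both deposited settings share their ratios. With the deposited log ratio, limma called 0 genes higher and 0 lower, 0 of the 9 members and 0 of the other pathway genes higher or lower (Akr7a3 1.32, adjusted p = 0.190; Ephx1 0.64, adjusted p = 0.281), where the prior degrees of freedom were 2.46. With median centring in place of loess, all these counts were again 0 (Akr7a3 1.44 and Ephx1 0.77, adjusted p of 1.00 for both), where the median log2 ratio of all genes was 0.65 on array 1 and -0.41 on array 2. With the deposited log ratio and an intensity trend, an alternative chosen after seeing the data, 1114 genes were higher and 1199 lower, against 795 and 773 in the report. Its prior degrees of freedom were infinite, so a gene's own spread over the 2 arrays did not enter the test. The trend setting called 4 members, Akr7a3 and Ephx1 among them and adding Txnrd1 and Akr1b8, and 14 other pathway genes lower, against 9. On the deposited ratios the call therefore turned on the variance model, with the ratios the same in both fits; for median centring the cause was not tested. An offset of 16, no filter on dim probes, the mean of kept probes and an intensity trend kept counts of all genes within 1.5 times. With 1 array left out no test is possible, so values alone remain: 1.19 to 1.33 for Akr7a3 and 0.55 to 0.62 for Ephx1. The test is on ratios within each array, so the diets are already paired by array. Signal over background limits Nqo1, Srxn1 and Akr1b8, which are dim.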
